A study of Rattus norvegicus with 6 samples.

Results

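The genes of fatty acid synthesis, uptake, oxidation and storage were followed in mesenchymal stem cells of the rat nasal mucosa, in cells named NPS-EMSC and in cells named EMSC. A set of 50 genes was matched by exact symbol, and all 50 had a row among the 20653 genes of the table. NPS-EMSC are the nasal mucosa stem cells that the series title describes as overexpressing neuropeptide S, and EMSC are the same kind of cell without that name. Both groups are primary cells with the labelled genotype SD, and each has 3 bulk RNA sequencing libraries. The labels do not say how the gene was delivered, whether EMSC received a control vector, or whether the libraries are separate cultures or animals. The p-values therefore measure the spread between these libraries, which may be technical.

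A cell makes fatty acids in the cytosol from acetyl-CoA, and desaturases and elongases then set their number of double bonds and their length. Fatty acids from outside enter with the help of transporters and binding proteins, are joined to coenzyme A, and are either built into triglyceride droplets or carried into mitochondria through the carnitine shuttle for beta-oxidation. Lipases release stored fatty acids again. Mesenchymal stem cells are known for their capacity to become fat-storing adipocytes when induced.

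Total reads counted per library were 39082245 to 39511976 in NPS-EMSC and 39314098 to 40261205 in EMSC. The Nps gene itself had 93566, 77014 and 85916 reads in NPS-EMSC, against 0, 0 and 10 reads in EMSC, so the libraries matched their names. All 11 mesenchymal stem cell markers looked up were above 1 CPM in both groups (CPM are read counts scaled by the TMM-adjusted library total). Their summed level was 22272 to 23427 CPM in NPS-EMSC and 21869 to 24042 CPM in EMSC, a sum made up mostly of Vim, Col1a1 and Col1a2. The markers themselves moved, with 7 rises and 4 falls: Nt5e (CD73) and Thy1 (CD90) had log2 fold changes of 2.16 (SE 0.08, edgeR adjusted p = 6.63e-18) and 1.55 (SE 0.05, edgeR adjusted p = 8.76e-20), and Pdgfra and Nes of -0.95 (SE 0.05, edgeR adjusted p = 1.65e-14) and -0.997 (SE 0.13, edgeR adjusted p = 3.53e-07). The 9 adipocyte markers with a row summed to 12.6 to 13.3 CPM in NPS-EMSC and 21.1 to 24.1 CPM in EMSC. Most of that sum was Cebpa, at 8.73 ± 0.790 CPM in NPS-EMSC and 15.4 ± 1.13 CPM in EMSC. Of the 4 tested, Cebpa and Cfd fell, Lep rose and Pparg was not called. Lep had few reads, with 11, 11 and 13 in NPS-EMSC, against 6, 1 and 1 in EMSC. Among the untested ones, Adipoq, Plin1 and Cidec lay at or near 0 in both groups, with highest values over the 6 libraries of 0.297, 0.103 and 0.194 CPM. Adrb3, also untested, had 1, 1 and 0 reads in NPS-EMSC, against 30, 26 and 5 reads in EMSC. The 15 leukocyte and macrophage markers with a row summed to 11.9 to 14.9 CPM in NPS-EMSC and 71.7 to 84.7 CPM in EMSC. Of the 11 tested, 10 fell and 1 (Cd74) rose, against 29.5% of all genes called lower and 29.7% called higher. The 9 Schwann and olfactory ensheathing markers summed to 6.75 to 7.81 CPM in NPS-EMSC and 29.6 to 33.0 CPM in EMSC, and 8 epithelial markers to 10.3 to 13.3 CPM in NPS-EMSC and 4.18 to 4.96 CPM in EMSC. The part of these cell types in the results that follow was not tested. In bulk libraries, fewer cells of a type and less RNA per cell cannot be told apart.

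The upstream sequences of a few of these genes are shown first. Of the 50 genes, 38 had a promoter in the RefSeq table of the rat assembly GRCr8, which gave 41 promoters of 300 bases each, running from 250 bases before the start to 50 bases after it. The 12 without an entry were Acaca, Fasn, Elovl6, Acss1, Lpl, Fabp4, Fabp5, Cpt1c, Acadl, Dgat1, Dgat2 and Lipe. The 250 bases before the start are printed for Acot2 and Fabp3, the risen genes of this table with the largest fold changes, for Slc27a6, the fallen gene with the largest, and for Scd2, the member with the highest level. These genes were chosen after their values were seen. Capitals mark the letters CCAAT or their reverse complement ATTGG, and all other bases are in lower case.
Acot2: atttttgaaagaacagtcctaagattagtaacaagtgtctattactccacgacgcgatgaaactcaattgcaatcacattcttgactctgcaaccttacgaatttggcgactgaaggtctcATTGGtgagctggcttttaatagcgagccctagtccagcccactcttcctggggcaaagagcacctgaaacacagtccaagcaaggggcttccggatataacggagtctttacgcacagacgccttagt
Fabp3: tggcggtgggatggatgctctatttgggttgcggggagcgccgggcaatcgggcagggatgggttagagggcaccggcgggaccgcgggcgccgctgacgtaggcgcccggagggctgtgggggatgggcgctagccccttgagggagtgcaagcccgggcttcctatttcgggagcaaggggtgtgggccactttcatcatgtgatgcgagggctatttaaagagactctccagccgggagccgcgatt
Slc27a6: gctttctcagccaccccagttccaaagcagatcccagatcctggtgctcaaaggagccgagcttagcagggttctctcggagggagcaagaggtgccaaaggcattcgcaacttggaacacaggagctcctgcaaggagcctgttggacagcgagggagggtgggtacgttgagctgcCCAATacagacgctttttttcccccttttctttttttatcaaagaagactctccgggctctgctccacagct
Scd2: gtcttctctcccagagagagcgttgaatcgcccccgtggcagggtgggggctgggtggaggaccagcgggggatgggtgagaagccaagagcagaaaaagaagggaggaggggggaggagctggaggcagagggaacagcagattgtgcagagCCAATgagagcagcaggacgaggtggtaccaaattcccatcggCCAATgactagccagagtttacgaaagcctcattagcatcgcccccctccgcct
The Acot2 stretch lies at chr6:109342590-109342839, plus strand, and Fabp3 at chr5:147935875-147936124, plus strand. Slc27a6 lies at chr18:54238797-54239046, plus strand, and Scd2 at chr1:253118127-253118376, plus strand. These are positions in GRCr8 and not in the build behind the counts, which is not given in the sources used here. The printed Acot2 and Slc27a6 stretches each hold 1 CCAAT match, that of Scd2 holds 2, and that of Fabp3 has no match to any motif searched.

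Motifs were searched in all 300 bases on both strands. The core of the sterol regulatory element, to which SREBP binds and which was written as TCACNCCAC with N for any base, was in 0 of the 41 promoters, against 1.12% of the 33469 promoters in the table. The direct repeat known as DR1, bound by PPAR with RXR and written as 2 copies of AGGTCA with 1 base of any kind between them, was also in 0 of the 41, against 0.0538% of all promoters. At such shares fewer than 1 match would fall among 41 promoters, so nothing is read from these counts. The E-box CACGTG was in 3 (7.32%), those of Elovl5, Mgll and Plin2, against 6.42% of all promoters. The CCAAT box was in 19 (46.3%), against 37.5%. None of the other motifs contains CCAAT. The median GC content of the 41 promoters was 60.3%, against 51.7% over all promoters. Of the 19 genes with a CCAAT match, 5 rose and 6 fell in NPS-EMSC. Over all genes tested, 29.7% were called higher and 29.5% lower, and the counts are not read as a trait of genes with these letters. A match is a description of letters and not a bound site, and no match says only that the letters are not in this window.

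Of the 49 fatty acid genes that could be tested, 16 rose in NPS-EMSC and 14 fell, and 19 were not called. The calls come from edgeR's quasi-likelihood F test, with p-values adjusted by Benjamini and Hochberg's method across the 14505 genes tested and a threshold of 0.05. The 16 rises make 32.7% of the genes tested in the set, against 29.7% of all genes called higher, and the 14 falls make 28.6%, against 29.5% of all genes called lower. In all, 61.2% of the set was called, against 59.3% of all genes. The share called is thus near that of all genes, and what follows describes which members moved. Their median log2 fold change was 0.020, against -0.0048 over all genes. The 3 NPS-EMSC libraries and the 3 EMSC libraries did not overlap for 33 of the 49 genes (67.3%), against 64.7% of all genes. A change of at least 2-fold was called for 7 (14.3%), against 14.8% of all genes. Elovl2, an elongase of very long polyunsaturated fatty acids, was too low to test, with 0, 8 and 2 reads in NPS-EMSC, against 4, 2 and 0 reads in EMSC.

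**Figure D1:**
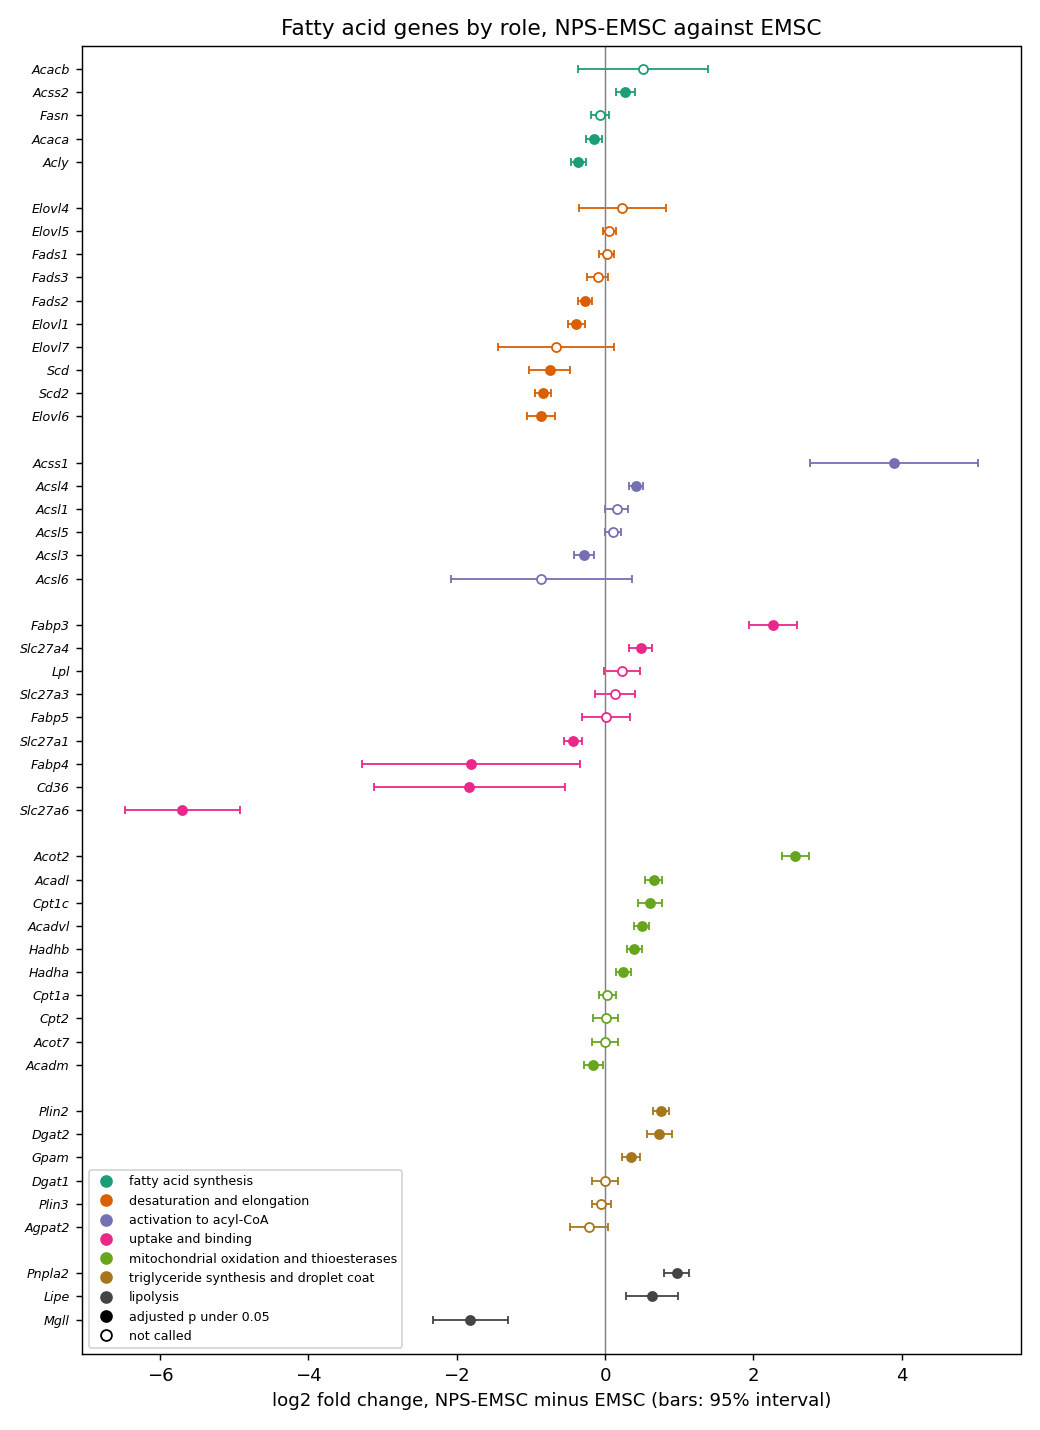
Log2 fold change of each tested fatty acid gene, NPS-EMSC minus EMSC, grouped by role, with 95% intervals from the fit over 6 libraries. Filled points passed adjusted p under 0.05 and open points did not. All 5 called desaturation and elongation genes lie left of 0, with Elovl6, Scd2 and Scd the lowest of them, and 6 of the 7 called oxidation genes lie right of 0. Over all genes tested, 29.7% were called higher and 29.5% lower.

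By role, the called genes of desaturation and elongation all went down, and those of triglyceride synthesis all went up. Of the 10 tested desaturation and elongation genes, 5 fell and 5 were not called, with a median log2 fold change of -0.33. Of the 10 oxidation and thioesterase genes, 6 rose, 1 fell and 3 were not called, with a median of 0.32. The 6 rises include Cpt1c, which was placed in this role by its gene family. Triglyceride synthesis and droplet coat genes had 3 rises among 6, with a median of 0.17, and the 3 lipolysis genes had 2 rises and 1 fall, with a median of 0.63. Synthesis had 1 rise and 2 falls among 5 (median -0.065), activation 2 rises and 1 fall among 6 (median 0.13), and uptake 2 rises and 4 falls among 9 (median 0.012). Over all genes tested, 29.7% were called higher, 29.5% lower and 59.3% either way. The share called was 50% for desaturation and elongation, activation and triglyceride synthesis, 60% for synthesis, 66.7% for uptake and 70% for oxidation. All 3 lipolysis genes were called. The role counts come from a set chosen with earlier results known, and no test was made of the lists.

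Levels between genes can be compared in FPKM, which divides by gene length. Scd2, a stearoyl-CoA desaturase, was the highest of the 50 in both groups, at 149 ± 10.2 FPKM in NPS-EMSC and 274 ± 10.9 FPKM in EMSC (SD, n = 3 each, as for all means below). After it came Hadha and Hadhb, the subunits of the mitochondrial trifunctional protein, at 75.9 ± 2.72 FPKM in NPS-EMSC and 66.02 ± 4.20 FPKM in EMSC for Hadha and 66.7 ± 3.94 FPKM in NPS-EMSC and 52.3 ± 1.70 FPKM in EMSC for Hadhb. In NPS-EMSC the next in order were Acadvl, Elovl5 and Acadl, at 50.2 ± 0.472, 49.6 ± 0.718 and 48.9 ± 2.65 FPKM, which lay within their spread of each other. In EMSC the next were Fads2, Acly and Elovl5, at 50.6 ± 1.98, 50.1 ± 2.25 and 49.1 ± 0.908 FPKM, again within their spread. A mean of at least 10 FPKM in both groups was found for 25 of the 50 genes, and 7 had a mean under 1 FPKM in both, namely Acacb, Elovl2, Elovl7, Acsl6, Acss1, Cd36 and Fabp4.

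**Figure D2:**
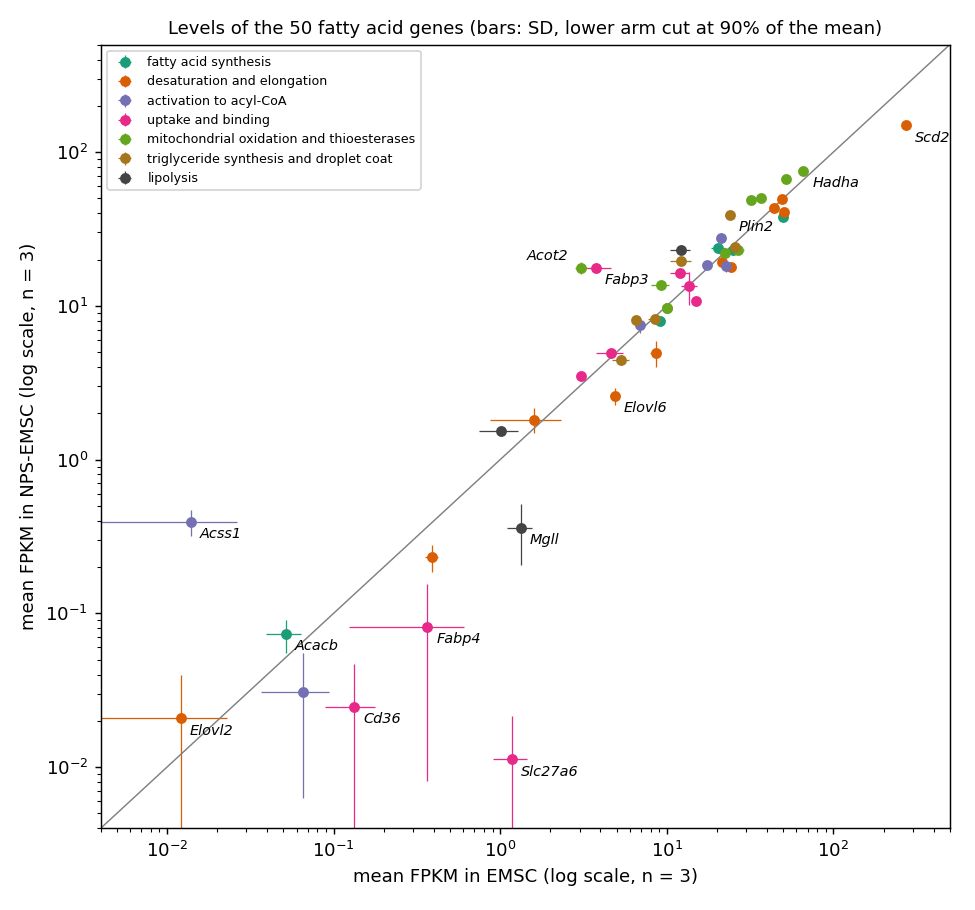
Mean FPKM of each of the 50 genes in NPS-EMSC (vertical, log scale) against EMSC (horizontal, log scale), coloured by role, with SD bars over 3 libraries whose lower arm is cut at 90% of the mean. Points above the diagonal are higher in NPS-EMSC. Scd2 is at the top right below the line, Acot2 and Fabp3 lie above it, and Slc27a6 and Mgll lie well below it.

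Summed over the 50 genes, the level was 1028 ± 8.16 FPKM in NPS-EMSC and 1071 ± 19.5 FPKM in EMSC, and its make-up differed. Desaturation and elongation genes held 330 ± 9.50 FPKM in NPS-EMSC (32.1% of the sum) and 479 ± 10.9 FPKM in EMSC (44.7%). Oxidation genes held 338 ± 5.54 FPKM in NPS-EMSC (32.9%) and 268 ± 11.6 FPKM in EMSC (25.1%). The libraries of the groups did not overlap in either sum. The sums lay within their spread of each other in NPS-EMSC, and in EMSC that of desaturation and elongation was the higher. Scd2 alone made up 149 of the 330 FPKM in NPS-EMSC and 274 of the 479 FPKM in EMSC. Triglyceride synthesis and coat genes summed to 104 ± 3.45 FPKM in NPS-EMSC and 82.2 ± 5.35 FPKM in EMSC, and lipolysis genes to 24.8 ± 1.09 FPKM in NPS-EMSC and 14.5 ± 1.78 FPKM in EMSC. For uptake the sums were 66.6 ± 2.44 FPKM in NPS-EMSC and 53.7 ± 5.54 FPKM in EMSC. For synthesis they were 93.0 ± 3.43 FPKM in NPS-EMSC and 105 ± 3.61 FPKM in EMSC, and for activation 71.7 ± 1.87 FPKM in NPS-EMSC and 68.3 ± 0.715 FPKM in EMSC. No test was made of these sums.

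**Figure D3:**
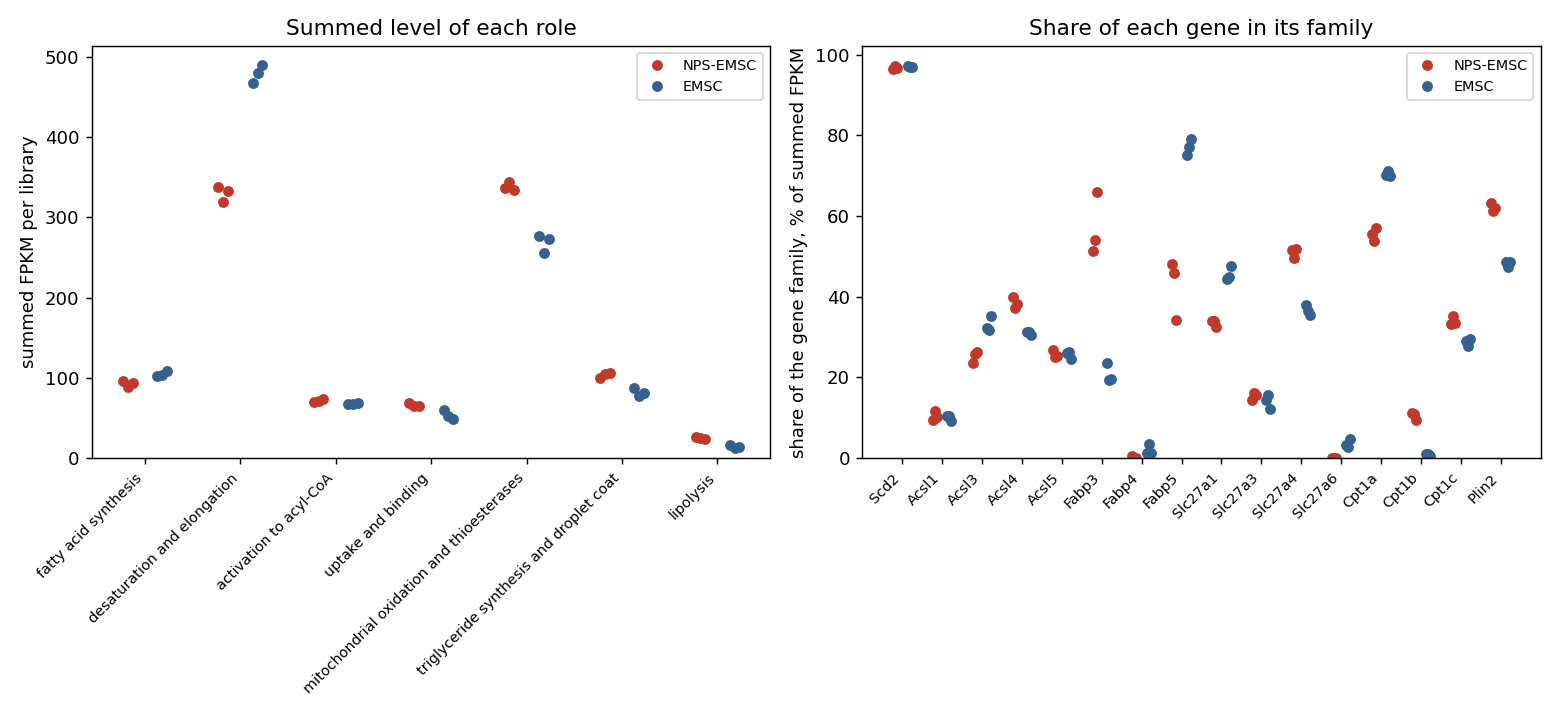
Left, summed FPKM of each role in each library; right, the share of each gene in the summed FPKM of its family in each library, with NPS-EMSC left of EMSC for every role and gene. Desaturation and elongation stands at 330 FPKM in NPS-EMSC and 479 FPKM in EMSC, and the share of Fabp3 at 57.1% in NPS-EMSC and 20.9% in EMSC.

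Among the genes that make fatty acids, the step that supplies cytosolic acetyl-CoA from citrate was lower in NPS-EMSC and the one that supplies it from acetate was higher. ATP citrate lyase, Acly, which splits citrate, had 169.6, 168 and 164 CPM in NPS-EMSC, against 204, 215 and 225 CPM in EMSC. All 3 NPS-EMSC libraries lay below all 3 EMSC libraries, and the log2 fold change was -0.36 (SE 0.05, edgeR adjusted p = 3.08e-07). The acetate-using synthetase Acss2 went the other way, with 98.1, 88.1 and 100.3 CPM in NPS-EMSC, against 80.3, 71.6 and 85.5 CPM in EMSC. Its groups did not overlap but the nearest libraries were close, and its log2 fold change was 0.27 (SE 0.06, edgeR adjusted p = 0.000764). That call was lost on log2(FPKM + 1) with no filter, at an adjusted p of 0.0747. Acetyl-CoA carboxylase alpha, Acaca, which makes the malonyl-CoA building block, had 85.2, 74.9 and 76.9 CPM in NPS-EMSC, against 88.0, 87.4 and 88.0 CPM in EMSC. Its EMSC libraries were nearly equal and NPS-EMSC 1 was just below them. The log2 fold change was small, at -0.15 (SE 0.05, edgeR adjusted p = 0.0177), and the call was lost without NPS-EMSC 2 (adjusted p 0.0999) or without NPS-EMSC 3 (adjusted p 0.0912).

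Fasn, the fatty acid synthase that assembles palmitate, had 231, 195 and 221 CPM in NPS-EMSC, against 212, 239 and 225 CPM in EMSC, and the groups overlapped. Its log2 fold change was -0.06 (95% interval -0.18 to 0.05), so the interval leaves room for a small difference either way. Acacb, the carboxylase at the mitochondrial surface, averaged 0.888 ± 0.213 CPM in NPS-EMSC and 0.609 ± 0.147 CPM in EMSC and was not called, with a log2 fold change of 0.51 (95% interval -0.37 to 1.39).

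The desaturases and elongases held 5 of the 14 falls. Elovl6, which lengthens palmitate towards stearate, had 15.3, 15.4 and 18.9 CPM in NPS-EMSC, against 28.2, 32.4 and 30.3 CPM in EMSC. Every NPS-EMSC library was lower than every EMSC library, and it fell by 0.87 on the log2 scale (SE 0.09, edgeR adjusted p = 1.06e-08). Scd2, which puts the first double bond into stearate and palmitate, had 807, 701 and 787 CPM in NPS-EMSC, against 1287, 1397 and 1402 CPM in EMSC. This most abundant member fell by 0.83 on the log2 scale (SE 0.05, edgeR adjusted p = 1.42e-12), which makes it 1.78-fold lower. Scd, its close relative, had 27.6, 18.8 and 26.6 CPM in NPS-EMSC, against 37.1, 42.4 and 43.2 CPM in EMSC, and fell by 0.75 on the log2 scale (SE 0.12, edgeR adjusted p = 0.000259). The groups did not overlap for either gene, and NPS-EMSC 2 was the lowest library in both.

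The Scd genes resemble each other in sequence, and the split of reads between them is uncertain, since the sources used here do not give how reads that match more than 1 of them were counted. Of the FPKM summed over Scd and Scd2, Scd2 held 96.8 ± 0.411% in NPS-EMSC and 97.0 ± 0.103% in EMSC, with overlapping libraries. A further relative, Scd4, averaged 0.337 ± 0.0695 CPM in NPS-EMSC and 0.141 ± 0.125 CPM in EMSC. The other called genes of the group were Elovl1, which extends saturated very long chains, with 59.3, 57.8 and 58.8 CPM in NPS-EMSC, against 79.1, 71.2 and 79.6 CPM in EMSC, and Fads2, the delta-6 desaturase of polyunsaturated fatty acids. Elovl1 had a log2 fold change of -0.39 (SE 0.06, edgeR adjusted p = 1.61e-06), and no NPS-EMSC library reached the lowest EMSC library. Fads2 had 139.5, 139.6 and 136 CPM in NPS-EMSC, against 160.2, 176 and 164 CPM in EMSC, a smaller log2 fold change of -0.27 (SE 0.05, edgeR adjusted p = 2.84e-05), and again no overlap.

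The 5 members of this group that were not called include those that work beside Fads2 on polyunsaturated chains. Fads1, the delta-5 desaturase, had a log2 fold change of 0.02 (95% interval -0.08 to 0.12), and Elovl5, an elongase of polyunsaturated chains, had 0.06 (95% interval -0.03 to 0.15). Fads3, a desaturase that acts on sphingoid bases, had a log2 fold change of -0.10 (95% interval -0.24 to 0.05). Their intervals exclude a change as large as those of Elovl6 or Scd2. The log2 fold changes of the low genes Elovl4 and Elovl7 have wide intervals, at 0.23 (95% interval -0.35 to 0.82) and -0.66 (95% interval -1.45 to 0.12). For Elovl7 the libraries did not overlap, with 0.888, 0.595 and 0.693 CPM in NPS-EMSC, against 1.17, 1.09 and 1.28 CPM in EMSC, but the adjusted p was 0.138.

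Of the 6 genes grouped under activation to acyl-CoA, 2 rose, 1 fell and 3 were not called. Acss2 and the Slc27a genes, which can also form acyl-CoA, are counted under synthesis and uptake. Acss1, the mitochondrial acetate enzyme, was close to absent in EMSC, with 43, 61 and 62 reads in NPS-EMSC, against 5, 1 and 0 reads in EMSC. In scaled units it had 1.12, 1.58 and 1.59 CPM in NPS-EMSC, against 0.121, 0.0247 and 0 CPM in EMSC, so even the NPS-EMSC libraries held little of it. The fitted log2 fold change was 3.89 (SE 0.55, edgeR adjusted p = 1.18e-06), and its size depends on the few EMSC reads and on the prior count of the fit. Acsl4, which prefers arachidonic acid, had 229, 212 and 227 CPM in NPS-EMSC, against 165, 168 and 166 CPM in EMSC, and Acsl3, which sits on lipid droplets and the endoplasmic reticulum, had 46.9, 51.0 and 54.3 CPM in NPS-EMSC, against 59.0, 59.6 and 66.6 CPM in EMSC. Acsl4 rose by 0.42 on the log2 scale (SE 0.05, edgeR adjusted p = 1.38e-08) and Acsl3 fell by 0.28 on the log2 scale (SE 0.06, edgeR adjusted p = 0.000506), with no overlap in either. Of the FPKM of the 5 Acsl genes, Acsl4 held 38.5 ± 1.40% in NPS-EMSC and 31.0 ± 0.369% in EMSC, and Acsl3 held 25.3 ± 1.44% in NPS-EMSC and 33.1 ± 1.92% in EMSC. Acsl1 and Acsl5, 2 further long-chain synthetases, had log2 fold changes of 0.16 (95% interval 0.000307 to 0.31) and 0.11 (95% interval 0.0026 to 0.22) and missed the threshold at adjusted p of 0.0787 and 0.0724 by edgeR. Acsl6, known from brain and testis, was low in both groups at 0.182 ± 0.145 CPM in NPS-EMSC and 0.37 ± 0.158 CPM in EMSC.

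**Figure D4:**
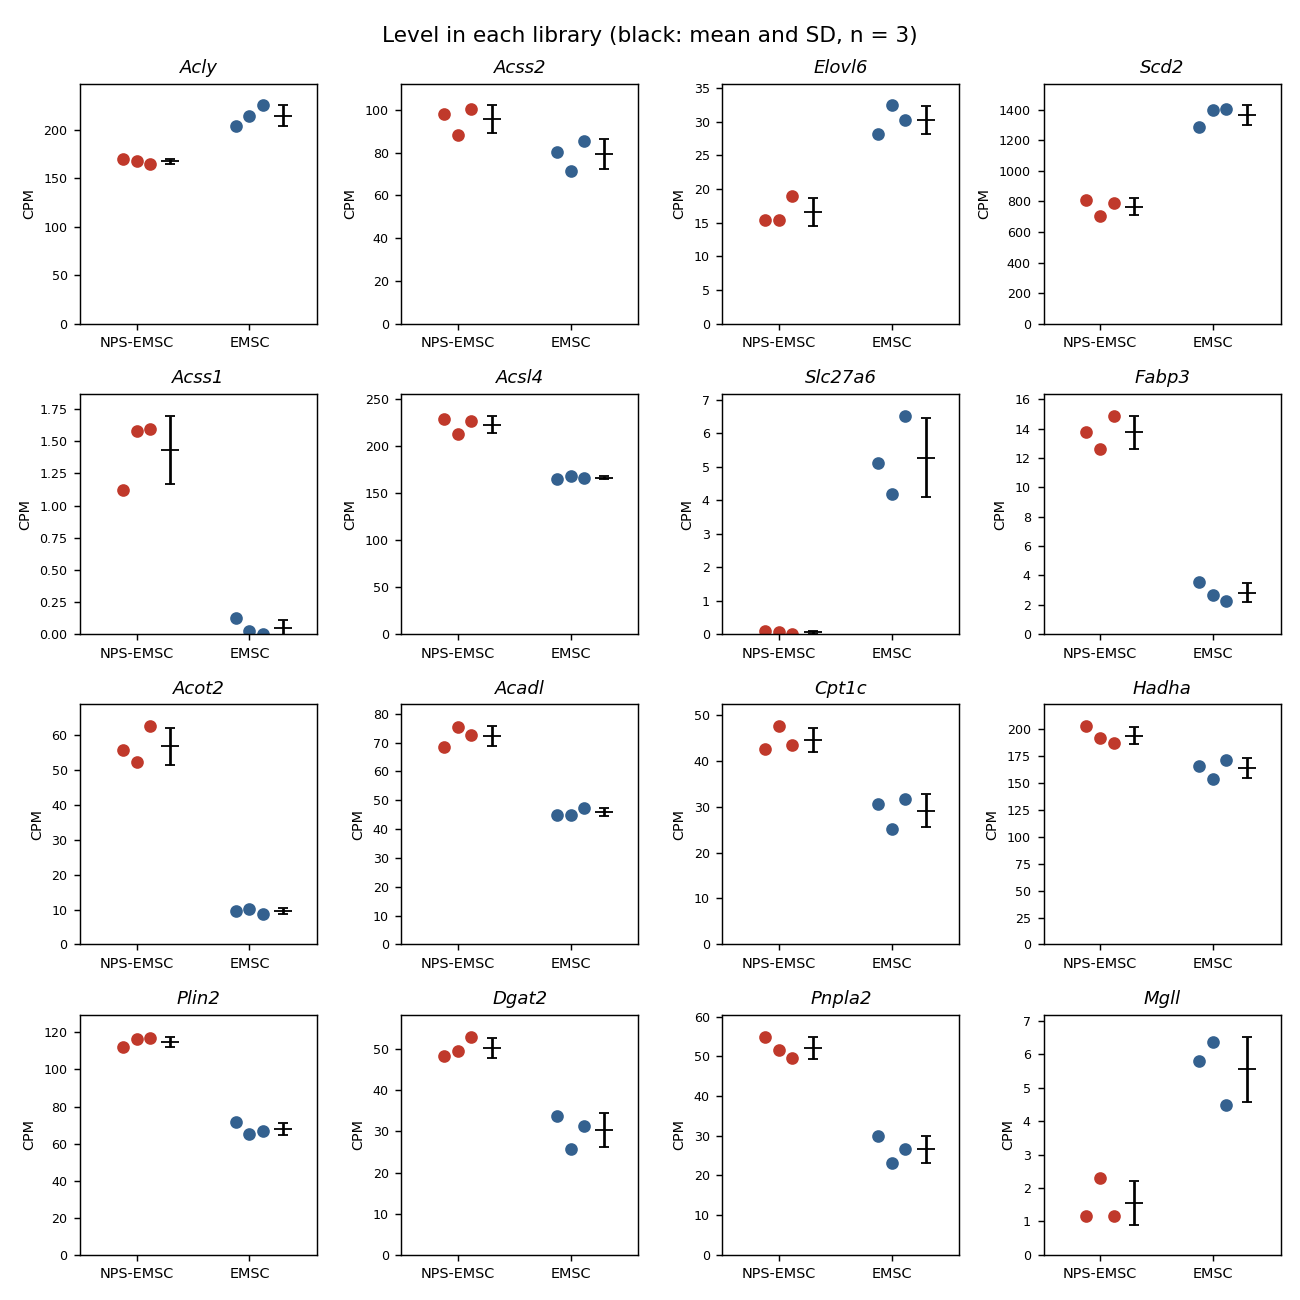
CPM in each library of 16 fatty acid genes, NPS-EMSC left of EMSC, with the mean and SD over 3 libraries in black and each axis starting at 0. All 16 were picked from the called genes, and the groups do not overlap in any panel. Of all tested fatty acid genes 67.3% did not overlap, against 64.7% of all genes. Acss1 is near 0 in EMSC, and Slc27a6 is near 0 in NPS-EMSC.

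Uptake genes showed the widest range of changes, with members of the same family going both ways. Slc27a6, a fatty acid transport protein known from human heart, had 0.104, 0.0517 and 0 CPM in NPS-EMSC, against 5.10, 4.18 and 6.51 CPM in EMSC, which are 4, 2 and 0 reads in NPS-EMSC, against 210, 169 and 260 reads in EMSC. It was present in every EMSC library and at a few reads or 0 in NPS-EMSC, with a log2 fold change of -5.70 (SE 0.38, edgeR adjusted p = 1.32e-12). Fabp3, the heart-type fatty acid binding protein that carries fatty acids through the cytosol, had 13.7, 12.6 and 14.9 CPM in NPS-EMSC, against 3.55, 2.65 and 2.28 CPM in EMSC. Its lowest NPS-EMSC library was above its highest EMSC library, and it rose by 2.26 on the log2 scale (SE 0.16, edgeR adjusted p = 4.01e-12), a 4.79-fold difference. Slc27a4, a transporter and acyl-CoA synthetase of the endoplasmic reticulum, had 51.1, 49.1 and 52.2 CPM in NPS-EMSC, against 40.9, 36.0 and 32.0 CPM in EMSC. Slc27a1, the insulin-responsive transporter, had 43.1, 43.2 and 42.0 CPM in NPS-EMSC, against 61.3, 56.8 and 55.0 CPM in EMSC. Slc27a4 rose by 0.48 on the log2 scale (SE 0.07, edgeR adjusted p = 5.49e-06) and Slc27a1 fell by 0.43 on the log2 scale (SE 0.06, edgeR adjusted p = 9.47e-07), each without overlap.

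Within both families a different gene was highest in each group. Of the FPKM of the 4 Slc27a genes, Slc27a4 held 51.1 ± 1.16% in NPS-EMSC and 36.7 ± 1.31% in EMSC, and Slc27a1 held 33.5 ± 0.898% in NPS-EMSC and 45.6 ± 1.66% in EMSC. Of the FPKM of Fabp3, Fabp4 and Fabp5, Fabp3 held 57.1 ± 7.70% in NPS-EMSC and 20.9 ± 2.32% in EMSC. Fabp5, the epidermal-type binding protein, held 42.7 ± 7.45% in NPS-EMSC and 77.1 ± 1.91% in EMSC, while its own level was 8.98 ± 2.22 CPM in NPS-EMSC and 8.90 ± 0.945 CPM in EMSC. Its log2 fold change of 0.01 (95% interval -0.31 to 0.33) was not called.

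The low uptake genes Cd36 and Fabp4 were called lower, but with few reads. Cd36, a scavenger receptor that takes up long-chain fatty acids, had 0, 7 and 2 reads in NPS-EMSC, against 12, 15 and 22 reads in EMSC, and its log2 fold change was -1.83 (SE 0.63, edgeR adjusted p = 0.0145). The adipocyte-type binding protein Fabp4 had 15, 2 and 0 reads in NPS-EMSC, against 18, 46 and 14 reads in EMSC, and its groups overlapped, with NPS-EMSC 1 above EMSC 3 in CPM. Its log2 fold change was -1.81 (SE 0.70, edgeR adjusted p = 0.033). The Cd36 call was lost without NPS-EMSC 1, NPS-EMSC 3 or EMSC 3 (adjusted p 0.0820, 0.0616 and 0.0785). The Fabp4 call was lost without NPS-EMSC 2 or 3 (adjusted p 0.112 and 0.106), without EMSC 2 (log2 fold change -1.17, adjusted p 0.208) and on log2(FPKM + 1) with no filter (adjusted p 0.112). Without NPS-EMSC 1 the Fabp4 log2 fold change was -3.19.

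Both genes are also known from macrophages and endothelium, and the leukocyte and macrophage markers fell beside them. Lyz2, the macrophage lysozyme, averaged 3.84 ± 0.94 CPM in NPS-EMSC and 52.5 ± 7.71 CPM in EMSC, and Ptprc, the leukocyte antigen CD45, had 0, 0.0259 and 0 CPM in NPS-EMSC, against 0.801, 0.495 and 1.03 CPM in EMSC. The 8 endothelial markers with a row summed to 8.46 to 8.66 CPM in NPS-EMSC and 6.85 to 9.43 CPM in EMSC, and the 5 tested were not called. The defining markers Cdh5, Kdr and Tie1 were at or near 0 in both groups, with at most 4 reads in any library. The 9 adipocyte markers with a row summed to 12.6 to 13.3 CPM in NPS-EMSC and 21.1 to 24.1 CPM in EMSC. Among the 4 tested, Cebpa and Cfd were lower and Lep was higher at few reads. The part of these cell types in the Cd36 and Fabp4 results was not tested. Lpl, the lipase that frees fatty acids from lipoproteins, had 11.4, 10.2 and 10.7 CPM in NPS-EMSC, against 9.62, 8.78 and 9.14 CPM in EMSC, and although the groups did not overlap it was not called, at a log2 fold change of 0.23 (95% interval -0.02 to 0.48) with an adjusted p of 0.103 by edgeR. Slc27a3, another member of the transporter family, averaged 11.4 ± 0.752 CPM in NPS-EMSC and 10.3 ± 1.89 CPM in EMSC and was not called.

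Oxidation genes were mostly higher in NPS-EMSC. Acot2, a mitochondrial thioesterase that splits long-chain acyl-CoA into fatty acid and free coenzyme A, had 55.7, 52.3 and 62.6 CPM in NPS-EMSC, against 9.71, 10.3 and 8.64 CPM in EMSC. Each NPS-EMSC library was far above each EMSC library, and the log2 fold change was 2.57 (SE 0.09, edgeR adjusted p = 1.3e-18), or 5.93-fold. Its cytosolic relative Acot1 has a similar sequence and averaged 0.259 ± 0.119 CPM in NPS-EMSC and 0.131 ± 0.0355 CPM in EMSC, too low to test, while the peroxisomal Acot3 had a log2 fold change of 0.54 (SE 0.15, edgeR adjusted p = 0.00283). How reads shared by these relatives were counted is not given in the sources used here.

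The enzymes of the long-chain steps of beta-oxidation rose together by less than 2-fold. Acadl, the long-chain acyl-CoA dehydrogenase, had 68.5, 75.5 and 72.6 CPM in NPS-EMSC, against 45.001, 45.02 and 47.4 CPM in EMSC, and Acadvl, the very long-chain one, had 111, 109 and 108 CPM in NPS-EMSC, against 80.1, 75.4 and 77.0 CPM in EMSC. They rose by 0.66 on the log2 scale (SE 0.06, edgeR adjusted p = 2.79e-10) and 0.50 (SE 0.05, edgeR adjusted p = 2.67e-09), with no overlap. Hadha had 202, 191 and 187 CPM in NPS-EMSC, against 165, 153 and 171 CPM in EMSC, and Hadhb had 166, 178 and 159 CPM in NPS-EMSC, against 131, 127 and 125 CPM in EMSC. The 2 subunits of the trifunctional protein, which acts next on the same chains, rose by 0.25 on the log2 scale (SE 0.05, edgeR adjusted p = 0.000134) for Hadha and 0.40 (SE 0.05, edgeR adjusted p = 1.38e-07) for Hadhb, and all NPS-EMSC libraries were above all EMSC libraries. The medium-chain dehydrogenase Acadm differed from them, with 47.0, 45.3 and 45.8 CPM in NPS-EMSC, against 54.3, 47.2 and 52.9 CPM in EMSC. Its log2 fold change was -0.16 (SE 0.06, edgeR adjusted p = 0.0324), and the call was lost with DESeq2 (adjusted p 0.0506), without NPS-EMSC 2 or 3 (adjusted p 0.0799 and 0.0867) and without EMSC 1 or 3 (adjusted p 0.129 and 0.0942).

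The Cpt1 genes, named for the carnitine shuttle that lets long chains into mitochondria, differed by isoform. They are grouped by family, and the part of each isoform in that shuttle was not tested. Cpt1a, the liver-type carnitine palmitoyltransferase of the outer membrane, had 106, 109 and 109.9 CPM in NPS-EMSC, against 111, 95.8 and 111 CPM in EMSC and was not called, at a log2 fold change of 0.03 (95% interval -0.08 to 0.14). Cpt1c, the isoform known from neurons, had 42.5, 47.5 and 43.3 CPM in NPS-EMSC, against 30.6, 25.1 and 31.6 CPM in EMSC and rose by 0.61 on the log2 scale (SE 0.08, edgeR adjusted p = 4.99e-07). Cpt1b, the muscle isoform, which is not among the 50, had 14.4, 15.1 and 12.3 CPM in NPS-EMSC, against 1.12, 0.965 and 0.601 CPM in EMSC, a log2 fold change of 3.89 (SE 0.19, edgeR adjusted p = 2.67e-15). Of the summed FPKM of the 3 isoforms, Cpt1a held 55.5 ± 1.55% in NPS-EMSC and 70.3 ± 0.681% in EMSC. Cpt1b held 10.5 ± 0.958% in NPS-EMSC and 0.883 ± 0.284% in EMSC. Cpt1c held 34.0 ± 0.973% in NPS-EMSC and 28.8 ± 0.896% in EMSC. Cpt1a was thus the highest isoform in both groups. Cpt2, which frees the acyl-CoA inside, and Acot7, a cytosolic thioesterase, had log2 fold changes of 0.01 (95% interval -0.16 to 0.17) and -0.01 (95% interval -0.18 to 0.17) and were not called.

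For storage, 3 of the 6 genes of triglyceride synthesis and the droplet coat rose and the other 3 were not called. Plin2, which coats lipid droplets in most cell types, had 112, 116 and 117 CPM in NPS-EMSC, against 71.7, 65.1 and 67.0 CPM in EMSC. Dgat2, which adds the last acyl chain to make triglyceride, had 48.2, 49.6 and 53.1 CPM in NPS-EMSC, against 33.7, 25.7 and 31.4 CPM in EMSC. Gpam, the mitochondrial acyltransferase that starts glycerolipid synthesis, had 60.2, 56.3 and 57.0 CPM in NPS-EMSC, against 47.3, 45.4 and 44.0 CPM in EMSC. For each of the 3 the lowest NPS-EMSC library was above the highest EMSC library. Plin2 rose by 0.76 on the log2 scale (SE 0.05, edgeR adjusted p = 2.16e-12), Dgat2 by 0.73 (SE 0.08, edgeR adjusted p = 5.91e-08), and Gpam by 0.34 (SE 0.06, edgeR adjusted p = 1.88e-05). Dgat1, the other enzyme of the last step, had 24.8, 23.0 and 25.6 CPM in NPS-EMSC, against 25.1, 22.0 and 26.1 CPM in EMSC, with overlapping groups and a log2 fold change of 0.00284 (95% interval -0.17 to 0.18). Plin3, a coat protein of nascent droplets, and Agpat2, the second acyltransferase, had log2 fold changes of -0.05 (95% interval -0.18 to 0.07) and -0.22 (95% interval -0.48 to 0.04). Of the FPKM of Plin2 and Plin3 together, Plin2 held 62.1 ± 1.05% in NPS-EMSC and 48.2 ± 0.717% in EMSC.

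The 3 lipases act one after the other on triglyceride, and the first 2 rose while the last fell. Pnpla2, also called ATGL, removes the first fatty acid and had 55.0, 51.6 and 49.5 CPM in NPS-EMSC, against 30.0, 23.0 and 26.8 CPM in EMSC. Lipe, the hormone-sensitive lipase, acts on the diglyceride and had 7.99, 7.68 and 8.29 CPM in NPS-EMSC, against 5.003, 3.86 and 6.54 CPM in EMSC. Mgll, which cleaves the monoglyceride, had 1.18, 2.30 and 1.16 CPM in NPS-EMSC, against 5.80, 6.38 and 4.48 CPM in EMSC. None of the 3 had overlapping groups, and EMSC 3 was the EMSC library nearest to NPS-EMSC for Lipe and for Mgll. Pnpla2 rose by 0.97 on the log2 scale (SE 0.08, edgeR adjusted p = 2.63e-10), which is 1.95-fold, and Lipe by 0.63 (SE 0.17, edgeR adjusted p = 0.00213). Mgll fell by 1.81 on the log2 scale (SE 0.25, edgeR adjusted p = 8.67e-07), which is 3.52-fold lower. Abhd6, another monoglyceride lipase outside the 50, averaged 33.4 ± 4.31 CPM in NPS-EMSC and 24.2 ± 1.70 CPM in EMSC. It rose by 0.47 on the log2 scale (SE 0.09, edgeR adjusted p = 8.51e-05), so the fall of Mgll is not read as one of the whole step.

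Other genes of the same pathways, outside the 50, were read from lists by role. Of 23 tested storage and lipolysis genes, 12 rose (52.2%, against 29.7% of all genes) and 3 fell (13.0%, against 29.5%). Their median log2 fold change was 0.17, and no test was made of this or the following lists. The regulators of lipases were among those that rose. Abhd5, the co-activator of ATGL, averaged 229.8 ± 5.09 CPM in NPS-EMSC and 173 ± 6.25 CPM in EMSC and rose by 0.41 on the log2 scale (SE 0.05, edgeR adjusted p = 2.17e-08). G0s2, an inhibitor of the same lipase, averaged 4.54 ± 0.865 CPM in NPS-EMSC and 1.06 ± 0.237 CPM in EMSC and rose by 2.04 on the log2 scale (SE 0.25, edgeR adjusted p = 1.1e-07). The fall with the smallest p was that of Lpin2, a phosphatidate phosphatase, which averaged 27.9 ± 1.26 CPM in NPS-EMSC and 49.7 ± 0.789 CPM in EMSC, a log2 fold change of -0.83 (SE 0.07, edgeR adjusted p = 4.67e-11).

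Of 26 other mitochondrial oxidation genes, 11 rose (42.3%, against 29.7% of all genes) and 7 fell (26.9%, against 29.5%), with a median of 0.11. Besides Cpt1b, those with the smallest p were the ketone-body enzymes Oxct1, at 214 ± 8.88 CPM in NPS-EMSC and 122 ± 1.39 CPM in EMSC, and Bdh1, at 24.9 ± 1.71 CPM in NPS-EMSC and 11.1 ± 1.77 CPM in EMSC. They rose by 0.81 on the log2 scale (SE 0.05, edgeR adjusted p = 7.13e-14) and 1.16 (SE 0.11, edgeR adjusted p = 7.74e-10). Of 19 peroxisomal genes, 4 rose (21.1%) and 7 fell (36.8%), beside the same shares of all genes (median -0.13). Catalase, Cat, which breaks down the peroxide this pathway releases, averaged 224 ± 13.7 CPM in NPS-EMSC and 122 ± 3.56 CPM in EMSC and rose by 0.88 on the log2 scale (SE 0.05, edgeR adjusted p = 5.97e-14). Hsd17b4, the bifunctional enzyme, and Crot, which passes shortened chains to carnitine, had log2 fold changes of -0.47 (SE 0.05, edgeR adjusted p = 3.5e-09) and -0.62 (SE 0.06, edgeR adjusted p = 4.75e-09). Members thus went both ways in the mitochondrial and the peroxisomal lists.

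Of 10 other uptake and activation genes, 4 rose (40%, against 29.7% of all genes) and 2 fell (20%, against 29.5%), with a median of 0.16. Angptl4, an inhibitor of lipoprotein lipase, averaged 73.8 ± 0.478 CPM in NPS-EMSC and 10.7 ± 2.38 CPM in EMSC and rose by 2.78 on the log2 scale (SE 0.11, edgeR adjusted p = 4.68e-11). The lipoprotein receptor Vldlr averaged 100.2 ± 6.63 CPM in NPS-EMSC and 47.9 ± 2.16 CPM in EMSC and rose by 1.06 on the log2 scale (SE 0.06, edgeR adjusted p = 2.63e-14). Cav1, the caveolar coat protein, averaged 295 ± 29.8 CPM in NPS-EMSC and 435 ± 22.3 CPM in EMSC, with a log2 fold change of -0.56 (SE 0.06, edgeR adjusted p = 3.69e-07). Of 14 other synthesis and elongation genes, 6 rose (42.9%) and 3 fell (21.4%), beside the same shares of all genes (median 0.094). Elongation also needs reductases and a dehydratase beside the Elovl enzymes, and these went both ways. The reductase Hsd17b12 averaged 66.4 ± 4.61 CPM in NPS-EMSC and 117 ± 3.67 CPM in EMSC, with a log2 fold change of -0.82 (SE 0.05, edgeR adjusted p = 1.36e-12). The reductase Tecr averaged 107 ± 2.34 CPM in NPS-EMSC and 88.5 ± 2.30 CPM in EMSC and rose by 0.27 on the log2 scale (SE 0.05, edgeR adjusted p = 3.67e-05). Of the dehydratases, Hacd3 had the highest CPM, averaged 116 ± 1.997 CPM in NPS-EMSC and 96.8 ± 0.518 CPM in EMSC and rose by 0.27 on the log2 scale (SE 0.05, edgeR adjusted p = 2.53e-05). Hacd1 and Hacd4 had log2 fold changes of 0.98 (SE 0.10, edgeR adjusted p = 2.66e-09) and -0.94 (SE 0.13, edgeR adjusted p = 1.36e-06).

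**Figure D5:**
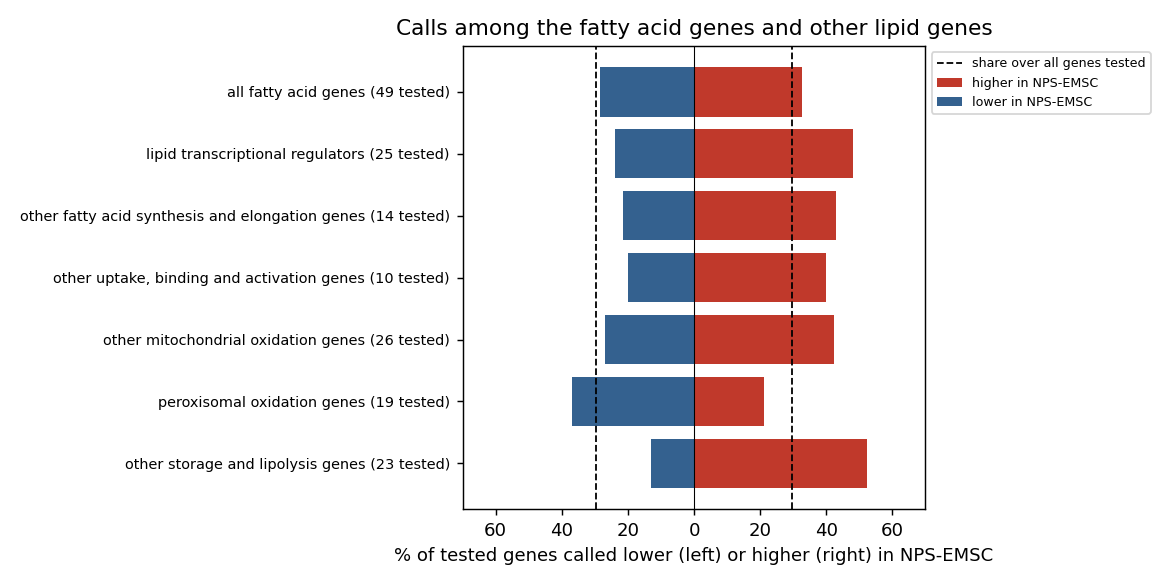
Percent of tested genes called lower (left, blue) and higher (right, red) in NPS-EMSC for the fatty acid genes and 6 lists of other lipid genes, with the number tested beside each name. Dashed lines mark the shares over all 14505 genes, 29.5% lower and 29.7% higher. The fatty acid genes lie near both lines, and the other storage genes lie past the right line at 52.2%.

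Among 25 tested transcriptional and energy-sensing regulators of lipid genes, 12 rose (48%) and 6 fell (24%), with a median of 0.16. Over all genes tested, 29.7% were called higher and 29.5% lower. The SREBP pathway, which drives synthesis and desaturation genes in many tissues, moved in both directions. Of its 7 genes in the list, 5 fell (Srebf1, Srebf2, Scap, Mbtps1 and Insig2) and 2 rose (Insig1 and Mbtps2). Srebf1, which encodes SREBP1, had 37.3, 38.9 and 36.7 CPM in NPS-EMSC, against 55.9, 57.4 and 61.4 CPM in EMSC, and a log2 fold change of -0.63 (SE 0.06, edgeR adjusted p = 2.41e-09). Its escort protein gene Scap averaged 64.7 ± 1.98 CPM in NPS-EMSC and 97.1 ± 3.29 CPM in EMSC, a log2 fold change of -0.59 (SE 0.05, edgeR adjusted p = 3.33e-10). Mbtps1, the site-1 protease that releases it, averaged 236 ± 3.82 CPM in NPS-EMSC and 368 ± 1.02 CPM in EMSC, a log2 fold change of -0.64 (SE 0.04, edgeR adjusted p = 1.87e-12). All 3 were lower in NPS-EMSC without overlap between the groups. Srebf2, which encodes the sterol-oriented SREBP2, had a smaller log2 fold change of -0.12 (SE 0.05, edgeR adjusted p = 0.036). The site-2 protease Mbtps2, which cuts after the site-1 protease, averaged 32.2 ± 2.63 CPM in NPS-EMSC and 22.8 ± 1.54 CPM in EMSC and rose by 0.50 on the log2 scale (SE 0.08, edgeR adjusted p = 1.03e-05). Insig1 and Insig2, which hold Scap in the endoplasmic reticulum, had log2 fold changes of 0.16 (SE 0.05, edgeR adjusted p = 0.00443) and -0.27 (SE 0.08, edgeR adjusted p = 0.00648).

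The PPAR family, receptors for fatty acids that drive oxidation and storage genes, had 2 rises. Ppara had 11.8, 14.3 and 12.1 CPM in NPS-EMSC, against 9.40, 9.50 and 10.1 CPM in EMSC and Ppard had 49.3, 51.7 and 56.5 CPM in NPS-EMSC, against 39.3, 38.3 and 42.9 CPM in EMSC. They rose by 0.40 on the log2 scale (SE 0.12, edgeR adjusted p = 0.00533) and 0.38 (SE 0.07, edgeR adjusted p = 2.09e-05). Pparg, the adipocyte receptor, averaged 3.09 ± 0.515 CPM in NPS-EMSC and 2.84 ± 0.591 CPM in EMSC and was not called, at a log2 fold change of 0.12 (95% interval -0.35 to 0.59). Their co-activator Ppargc1a, known for mitochondrial genes, had 12.3, 13.1 and 13.5 CPM in NPS-EMSC, against 8.77, 8.31 and 7.24 CPM in EMSC and rose by 0.67 on the log2 scale (SE 0.12, edgeR adjusted p = 3.64e-05). Prkab2, a subunit of the energy sensor AMPK, averaged 64.8 ± 2.17 CPM in NPS-EMSC and 27.2 ± 3.197 CPM in EMSC and rose by 1.25 on the log2 scale (SE 0.07, edgeR adjusted p = 1.78e-13), the smallest p of the list. RNA levels do not measure the activity of these proteins.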

How the data were processed

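RNA of 3 NPS-EMSC and 3 EMSC libraries was extracted with TRIzol and prepared with a VAHTS Universal V6 kit, per the labels' protocols. Tools listed in the submitters' processing notes, with no role given, are HISAT2, HTSeq, fastp, DESeq, StringTie and R 3.2.0. Not given in the sources used here are the build, the annotation and the strand setting. The authors deposited whole-number read counts per gene and, in a second table, FPKM. For all 20653 genes the deposited FPKM equalled the count divided by 1 fixed length and the column total, within 0.1%, so it is no separate measurement.

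Counts were fitted with edgeR 4.0.16 in R 4.3.3 on the whole table (TMM, filterByExpr with minimum count 10 and minimum total 15, robust quasi-likelihood F test, prior count 2), which left 14505 genes. The 6148 untested genes held at most 0.0393% of a library's reads. Benjamini-Hochberg adjustment ran over all genes tested, with calls under 0.05. SE was taken as the size of the log2 fold change (NPS-EMSC minus EMSC) over the root of F. CPM uses TMM-scaled totals. Alternatives used DESeq2 1.42.0, limma 3.58.1 and other settings given at the end.

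In each role, up to 4 called members with the largest fold changes and the member of highest FPKM were named with every library, some further members likewise, and up to 3 called genes of smallest p from each further list. Single others were added after their values were seen (Scd4, Acot1, Acot3, Abhd6, Scap, Srebf2, Mbtps2, Insig1, Insig2, Tecr, Hacd3, Lyz2, Ptprc, Adrb3 and the stem cell and endothelial markers). The members and lists were chosen with earlier results of these data known. Promoters come from the RefSeq table of GRCr8; the planned display of promoters with an SRE or DR1 match found none. No sample was left out.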

Additional observations from a re-analysis of the deposited data

How the results depend on the processing

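With 17 alternatives, the number of fatty acid genes called higher was 15 to 17 and the number called lower 10 to 14, against 16 and 14 reported; over all genes the counts were 3492 to 4539 higher and 3495 to 4662 lower. Of the 30 called members, 25 kept their call and direction under every alternative that tested them. The exceptions were Acss2, Acaca, Cd36, Fabp4 and Acadm, and 4 uncalled genes (Elovl7, Acsl1, Acsl5, Agpat2) were called under at least 1 alternative. Leaving out 1 library at a time gave 16 to 17 members higher and 10 to 13 lower. Correlations of same-numbered deviations from the group means were -0.0389, 0.0460 and 0.0356, and those of other-numbered ones ran from -0.0822 to 0.0512. With 3 libraries a group these values cannot decide whether equal replicate numbers pair the samples. The replicate block gave 16 members higher and 14 lower. On log2(FPKM + 1) the log2 fold changes of low genes shrank, by construction of the pseudocount, to -1.10 for Slc27a6, -0.78 for Mgll and 0.34 for Lipe. The median log2 fold change of the members, 0.020, was near 0 and moved to -0.013 with upper-quartile factors. It was -0.0096 on log2(FPKM + 1), -0.0098 on log2(FPKM + 0.1) and -0.016 on log2(FPKM + 1) with no filter. Without 1 library it ranged from 0.018 to 0.055. The median over all genes was -0.0048 in the main fit and -0.038 with upper-quartile factors. On the FPKM settings, in the same order, it was -0.027, -0.032 and -0.0045. The cause of these moves was not tested.

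Signs turned under some alternatives for 9 genes, none of them called. With upper-quartile factors Fads1, Fabp5, Cpt1a, Cpt2 and Dgat1 had log2 fold changes of -0.013, -0.021, -0.0026, -0.025 and -0.031. On log2(FPKM + 1), with and without a filter, they had -0.023, -0.051, -0.0096, -0.032 and -0.035, and on log2(FPKM + 0.1) -0.023, -0.056, -0.0098, -0.035 and -0.039. With 1 CPM in at least 3 libraries Cpt2 had -0.0012 and Dgat1 -0.0070. Fabp5 had -0.016 with limma-voom and -0.0066 with the replicate block. Without 1 library the ranges were -0.12 to 0.0045 for Fasn, -0.017 to 0.044 for Fads1, -0.037 to 0.61 for Elovl4, -0.012 to 0.21 for Slc27a3, -0.16 to 0.19 for Fabp5, -0.039 to 0.064 for Cpt1a, -0.016 to 0.038 for Cpt2, -0.043 to 0.021 for Acot7 and -0.067 to 0.049 for Dgat1. With 3 libraries a group, small differences of genes under 1 CPM are not detectable at this depth.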

Other observations

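Values of further genes are given here. Acss3, Prkaa2 and Nr1h3, and the relatives Prkaa1 and Nr1h2, were chosen after their values were seen. Esrra is one of the called regulators of smallest p. Acss3 is in no list above, and the others are among the 25 regulators already counted. Acss3, a further short-chain acyl-CoA synthetase of mitochondria, was high in both groups, at 263 ± 4.17 CPM in NPS-EMSC and 245 ± 5.92 CPM in EMSC, with a log2 fold change of 0.10 (SE 0.04, edgeR adjusted p = 0.0518). Esrra, a nuclear receptor that drives mitochondrial genes, averaged 43.5 ± 1.49 CPM in NPS-EMSC and 24.7 ± 1.02 CPM in EMSC and rose by 0.81 on the log2 scale (SE 0.07, edgeR adjusted p = 2.17e-10). Prkaa2, a catalytic subunit of AMPK, averaged 7.06 ± 0.361 CPM in NPS-EMSC and 1.04 ± 0.583 CPM in EMSC and rose by 2.70 on the log2 scale (SE 0.27, edgeR adjusted p = 1.91e-08). The other catalytic subunit, Prkaa1, was higher in level, at 46.8 ± 2.79 CPM in NPS-EMSC and 41.4 ± 2.51 CPM in EMSC. It rose by 0.18 (SE 0.07, edgeR adjusted p = 0.0255). Nr1h3, the sterol-sensing receptor LXR alpha, averaged 3.93 ± 0.513 CPM in NPS-EMSC and 9.63 ± 0.472 CPM in EMSC with a log2 fold change of -1.28 (SE 0.15, edgeR adjusted p = 5.7e-08). LXR beta, Nr1h2, was higher in level, at 67.0 ± 1.18 CPM in NPS-EMSC and 57.7 ± 4.25 CPM in EMSC. It rose by 0.21 (SE 0.06, edgeR adjusted p = 0.00262).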
